A study of Mus musculus with 10 samples.

Results

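The genes described here are 9 genes whose products mark the projection neurons of the striatum: Drd1 and Tac1 of the direct pathway, Drd2, Adora2a, Penk and Gpr6 of the indirect pathway, and Ppp1r1b, Rgs9 and Pde10a, which both pathways share. A gene was taken from the array where the platform annotation gave a probe set to its symbol alone. Of the 9 genes, 8 had such a probe set, out of 19938 genes measured; Adora2a, an adenosine receptor gene, had none in the annotation used and was not analysed here. The 9 were chosen by name, as textbook markers, after the mean Tg-minus-WT difference of striatal markers in these arrays was known. Each of the 8 had a single probe set, so the rule of taking the brightest had nothing to choose. All 8 had means over the 10 arrays in the upper 60% of probe sets.

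By the labels' protocols, each array carried total RNA of 1 whole brain. The 5 Tg mice overexpressed Glo1 from a bacterial artificial chromosome, and the 5 WT mice were their wild-type littermates; all were naive adult males on a C57Bl/6J background, housed in groups. Glo1 encodes glyoxalase 1, which clears methylglyoxal. The sources used here do not say how many founder lines were used or which cells express the transgene. Each group held 5 biological replicates by label, and values are log2 expression units, in which a difference of 1 is a doubling.

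Striatal projection neurons are GABAergic cells that make up most of the striatum. Direct-pathway cells carry the dopamine receptor D1 and substance P and promote movement; indirect-pathway cells carry the dopamine receptor D2, the adenosine receptor encoded by Adora2a and enkephalin and restrain it. Dopamine raises cAMP through the first receptor and lowers it through the second, and both cell types read that signal through the same phosphoprotein, phosphodiesterase and G-protein regulator. In whole-brain RNA, fewer cells of a type and less RNA per cell cannot be told apart.

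Glo1 was read at 11.88 to 12.23 in Tg and 10.27 to 10.75 in WT on its brightest probe set, so every array matched its label. One array stood apart. On WT replicate 2 the mean of 10 cerebellar markers was 7.93, against 10.61 to 10.72 on the other 4 WT arrays and 10.39 to 10.52 on the Tg arrays. The mean of 6 pituitary markers was 9.92 there, against 6.57 to 6.75 on the other WT arrays; it was also high on Tg replicate 2 (9.54). Cortical markers averaged 10.27 on WT replicate 2 and 10.12 to 10.13 on the other WT arrays. Whether the tissue taken differed between arrays was not tested. Because of these values, the comparisons below are given with all 10 arrays and with WT replicate 2 left out.

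The levels of the striatal genes in Tg brain lay close to those in WT brain. All 8 had a lower mean in Tg, and none passed the test. The fit was limma on 28944 probe sets with Benjamini-Hochberg adjustment, in which 0.0345% of probe sets passed at 0.05 (10, among them those of Glo1) and 0.0276% passed as lower in Tg. The adjusted p of each of the 8 was 0.9998. At an unadjusted limma p under 0.05 there was 1 of 8, Rgs9, where 2.21% of probe sets were. A lower mean in Tg was common in the table: 52.8% of all genes had one, and 62.3% of genes in the upper 60% by mean. The median difference of the 8 was -0.092, against -0.003 over all genes measured and -0.014 over the brighter ones. These genes were listed after a lower mean of striatal markers in Tg had been seen in the same arrays, so their shared direction is not independent evidence of a change.

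The differences were smaller on the whole when WT replicate 2 was left out. All 8 still had a lower mean in Tg, against 46.7% of all genes and 62.6% of the brighter ones. Their median difference became -0.051. None passed, against 0.0380% of probe sets in either direction and 0.0311% as lower in Tg, and the adjusted p ran from 0.4347 for Rgs9 to 0.8706 for Ppp1r1b. Rgs9 was again the 1 gene of the 8 at an unadjusted p under 0.05, where 11.0% of probe sets were in this fit.

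Drd1 encodes the dopamine receptor that stimulates adenylyl cyclase and defines the direct pathway. It read 9.43, 9.76, 9.44, 9.32 and 9.46 on WT replicates 1 to 5 and 9.35, 9.31, 9.32, 9.40 and 9.47 on Tg replicates 1 to 5. WT replicate 2 was the highest of all arrays, and the other 4 WT values lay within the range of the Tg values. The difference was -0.12 (95% interval -0.28 to 0.05) and -0.04 (-0.15 to 0.06) without that array. Tac1, the precursor gene of substance P and neurokinin A, gave the opposite picture. Its WT values were 10.33, 10.29, 10.52, 10.57 and 10.57, and its Tg values 10.47, 10.36, 10.43, 10.47 and 10.43. Here WT replicate 2 was the lowest of the 10 arrays, WT replicate 1 was next, and the 3 remaining WT arrays were the highest. The Tg values sat between these, so the WT spread (SD 0.136, n = 5) exceeded the Tg spread (SD 0.0429, n = 5). The difference in Tac1 was -0.03 (-0.16 to 0.11), and -0.07 (-0.19 to 0.05) without WT replicate 2. Its sign turned when either of 2 other WT arrays was dropped, to 0.003 with WT replicate 4 left out and 0.004 with WT replicate 5 left out.

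Tac1 lies on chromosome 6, which also holds the stretch of genes that passed the test as lower in Tg. By order along assembly GRCm38.p6, 8 measured genes separate it from Ndufa4, the nearest of them. Ndufa4 differed by -0.79 (limma adjusted p = 3.672e-05), and its neighbour on the Tac1 side, Nxph1, by -0.31 (limma adjusted p = 0.1248); these were -0.78 and -0.29 without WT replicate 2. The genes between Tac1 and Ndufa4 had a median difference of -0.040, and of -0.068 with 9 arrays. The gene next to Tac1 on that side, the asparagine synthetase gene Asns, differed by 0.06, and by 0.03 with 9 arrays. The nearest measured gene on the other side, Sdhaf3, differed by 0.02 and 0.01.

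Drd2 encodes the inhibitory dopamine receptor of the indirect pathway, which is also made by pituitary and midbrain dopamine cells. It read 10.54, 10.84, 10.42, 10.46 and 10.54 in WT and 10.40, 10.52, 10.44, 10.51 and 10.46 in Tg. WT replicate 2 was the highest of the 10 arrays, and the remaining values of the groups overlapped. The difference was -0.09 (-0.25 to 0.06), and -0.02 (-0.12 to 0.07) without WT replicate 2. The pituitary hormone genes Prl and Gh read 12.48 and 13.46 on WT replicate 2 and 12.09 and 13.14 on Tg replicate 2, where Drd2 was the highest of the Tg arrays by a small margin. The part of pituitary RNA in the Drd2 values was not tested.

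Penk, the enkephalin precursor gene, had the lowest pooled within-group SD of the 8 over 10 arrays, 0.0390, against a median of 0.0975 over all genes. Over 9 arrays its SD was 0.0417, and that of Ppp1r1b, at 0.0393, was lower. Its WT values were 12.61, 12.63, 12.63, 12.67 and 12.61, and its Tg values 12.60, 12.51, 12.60, 12.63 and 12.54. WT replicate 2 lay in the middle of the WT values. In Tg, 4 of 5 values were under the whole WT range. The difference was -0.06 (-0.14 to 0.03) with or without WT replicate 2. The two-sided exact permutation p of this gene was 0.0476, unadjusted, and 0.0952 without that array. Because the genes were listed with earlier differences known, the exact p values given here and below are not independent evidence.

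Gpr6 encodes an orphan receptor that is active without a ligand, raises cAMP and is enriched in indirect-pathway cells. It read 9.51, 9.95, 9.47, 9.49 and 9.40 in WT and 9.46, 9.47, 9.32, 9.48 and 9.51 in Tg. Its value on WT replicate 2 was the farthest from the other arrays of all 8 genes, and Tg replicate 3 was the lowest Tg array. The difference was -0.12 (-0.32 to 0.08), with the widest interval of the 8, and -0.02 (-0.12 to 0.08) without WT replicate 2.

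**Figure D1:**
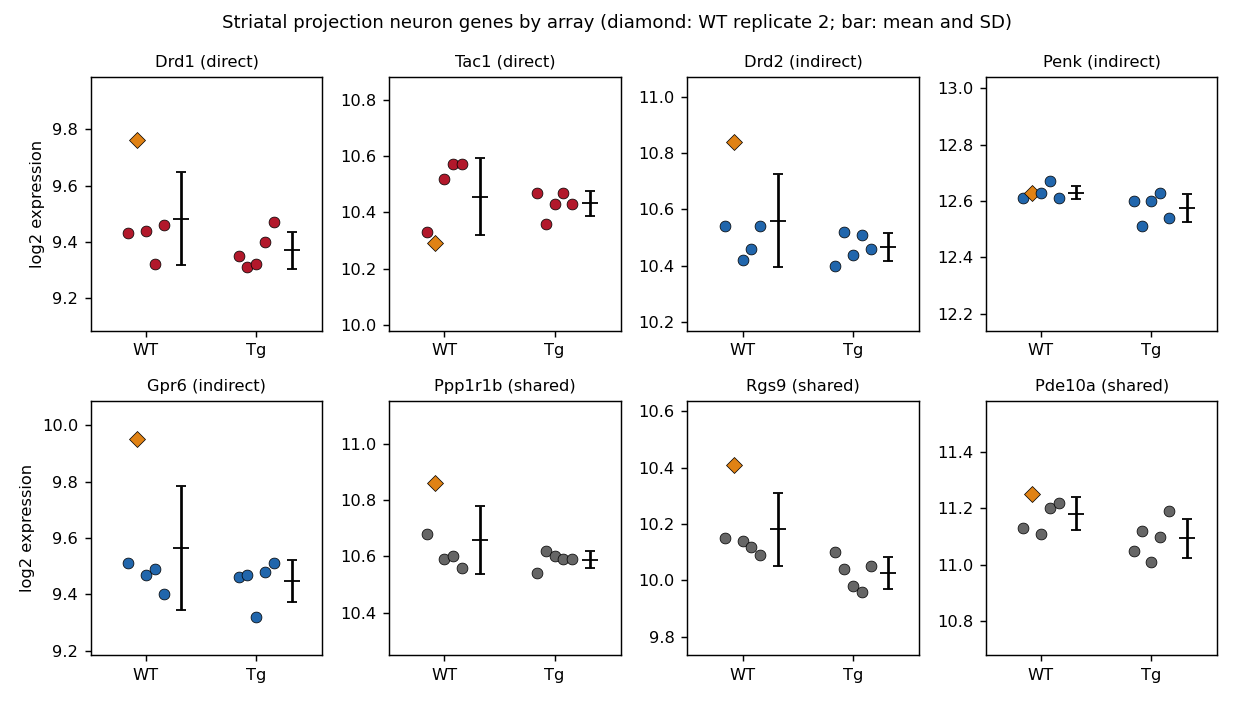
Log2 expression (vertical axis) of the 8 measured genes on the 5 WT and 5 Tg arrays. Each point is 1 array, the orange diamond is WT replicate 2, and bars give the mean and SD of each group; every panel spans 0.9 log2 units. WT replicate 2 is the highest array in 6 panels, the lowest in the Tac1 panel and inside the WT range in the Penk panel.

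Of the genes that both pathways share, Rgs9 and Pde10a had the largest differences of the 8 once WT replicate 2 was left out, and Ppp1r1b the smallest. Ppp1r1b encodes the dopamine- and cAMP-regulated phosphoprotein, an inhibitor of protein phosphatase 1 when phosphorylated by protein kinase A. It read 10.68, 10.86, 10.59, 10.60 and 10.56 in WT and 10.54, 10.62, 10.60, 10.59 and 10.59 in Tg. The 2 highest values were WT replicates 2 and 1, and the rest overlapped. Its difference was -0.07 (-0.19 to 0.06), and -0.02 (-0.10 to 0.07) without WT replicate 2.

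Rgs9 encodes a regulator of G protein signalling whose long form shortens dopamine receptor signals in the striatum; the probe set does not separate its isoforms as used here. It read 10.15, 10.41, 10.14, 10.12 and 10.09 in WT and 10.10, 10.04, 9.98, 9.96 and 10.05 in Tg. The 4 WT arrays other than replicate 2 lay within a narrow band, and 4 of 5 Tg values lay below all of them; Tg replicate 1 fell inside it. The difference of -0.15 (-0.29 to -0.02), a ratio of 0.899 of Tg to WT, had the largest size of the 8. With that array left out it was -0.09 (-0.18 to -0.01), a ratio of 0.936. The two-sided exact permutation p was 0.0159 with 10 arrays and 0.0238 with 9, both unadjusted. The limma adjusted p was 0.9998 and 0.4347. Rgs9 was listed after the lower striatal mean in Tg had been seen, so these exact p values are not independent evidence. The lowest limma adjusted p that any of the 8 genes reached in any alternative setting was 0.4207, and it belonged to Rgs9.

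Pde10a encodes the phosphodiesterase that breaks down cAMP and cGMP in both kinds of projection neuron. It read 11.13, 11.25, 11.11, 11.20 and 11.22 in WT and 11.05, 11.12, 11.01, 11.10 and 11.19 in Tg. WT replicate 2 was only just the highest array, and 3 of 5 Tg values were under the whole WT range. The difference was -0.09 (-0.19 to 0.01; two-sided exact permutation p = 0.0476, unadjusted) and, without WT replicate 2, -0.07 (-0.17 to 0.03; exact p = 0.1032).

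Over 10 arrays the two-sided exact permutation p of the other 5 genes, unadjusted, was 0.1587 for Drd1, 0.6667 for Tac1, 0.246 for Drd2, 0.3651 for Gpr6 and 0.2857 for Ppp1r1b; over 9 arrays these lay between 0.2698 and 0.7143. The share of all genes under a given exact p is not given here. For none of the 8 genes were the groups apart, with every Tg array under every WT array. Over 10 arrays 0.316% of all genes showed that outcome. Without WT replicate 2 the count was again 0 of 8, against 1.24% of genes. The intervals bound how far the genes can have differed on this scale. With 10 arrays their lower ends corresponded to Tg-to-WT ratios of 0.803 for Gpr6 to 0.907 for Penk, and their upper ends to ratios of 0.989 for Rgs9 to 1.080 for Tac1. With 9 arrays the lower ends ran from 0.879 for Tac1 to 0.933 for Ppp1r1b, with Gpr6 at 0.918, and the upper ends from 0.995 for Rgs9 to 1.058 for Gpr6.

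**Figure D2:**
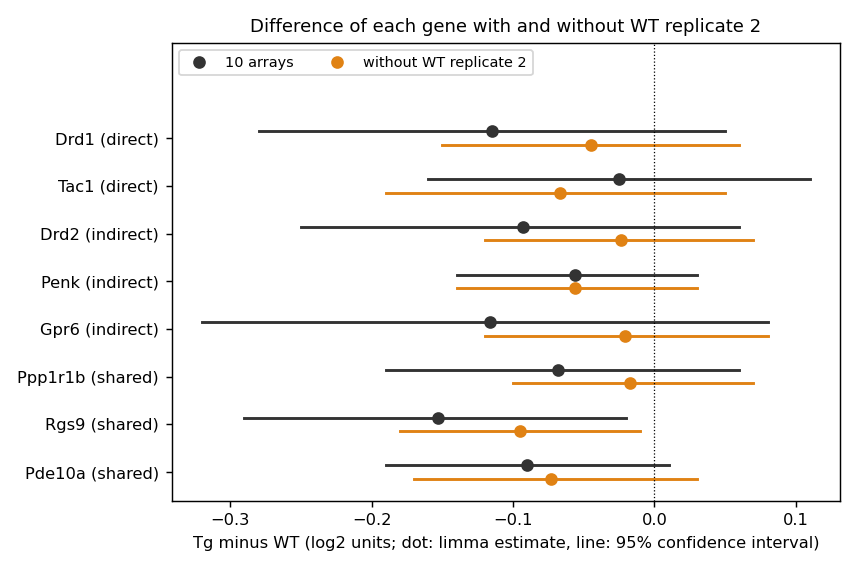
Tg minus WT in log2 units (horizontal axis) for each of the 8 genes, with limma's 95% confidence interval, over 10 arrays (black) and without WT replicate 2 (orange). All 16 estimates lie below 0, and the intervals of Rgs9 alone exclude it in both fits. Without WT replicate 2 the estimates of Drd1, Drd2, Gpr6, Ppp1r1b, Rgs9 and, by less, Pde10a move towards 0. That of Tac1 moves away from 0, and that of Penk stays in place.

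By pathway, the median difference was -0.070 for the 2 direct-pathway genes, -0.093 for the 3 indirect-pathway genes and -0.090 for the 3 shared genes. With WT replicate 2 left out the medians were -0.056, -0.024 and -0.073. The indirect-pathway median thus moved from the largest in size to the smallest when that array was dropped. The order of the pathways also changed with other arrays: the shared median was the larger without Tg replicate 1 (-0.080 against -0.076), without Tg replicate 5 (-0.114 against -0.092) and without WT replicate 1 (-0.103 against -0.097). With each array's level set to the mean of 9 cortical markers the medians were -0.068, -0.091 and -0.088; with WT replicate 2 also left out, a setting chosen after the data were seen, they were -0.083, -0.052 and -0.100.

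WT replicate 2 divided the genes in another way than pathway. It was the highest of the 10 arrays for 6 of 8 genes, Drd1, Drd2, Gpr6, Ppp1r1b, Rgs9 and Pde10a; it was the highest for 37.3% of all genes and for 28.9% of those in the upper 60%. Relative to the mean of the other 4 WT arrays it was 0.48 higher in Gpr6, 0.35 in Drd1, 0.34 in Drd2, 0.29 in Rgs9, 0.25 in Ppp1r1b and 0.09 in Pde10a. Tac1 was lower there by -0.21. The 2 peptide precursors, Tac1 and Penk, therefore did not follow the receptors of their own pathways on this array. This is a single array, so these values have no replicate check. Beside them, the median of the same quantity was 0.15 for 9 cortical markers (range 0.01 to 0.32), 0.17 for 7 hippocampal markers, 0.40 for 6 hypothalamic markers, 0.00 for 6 thalamic markers and -2.64 for 10 cerebellar markers. Over all genes measured it was 0.079. Of 31 further striatal genes, 20 stood above the mean of the other WT arrays there, with a median of 0.12 (range -0.96 to 0.41). By list the median was -0.01 for 7 further direct-pathway genes, 0.1 for 4 further indirect-pathway genes and 0.17 for 20 further shared genes. The part of the lower cerebellar signal in the higher values of the 6 genes was not tested.

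**Figure D3:**
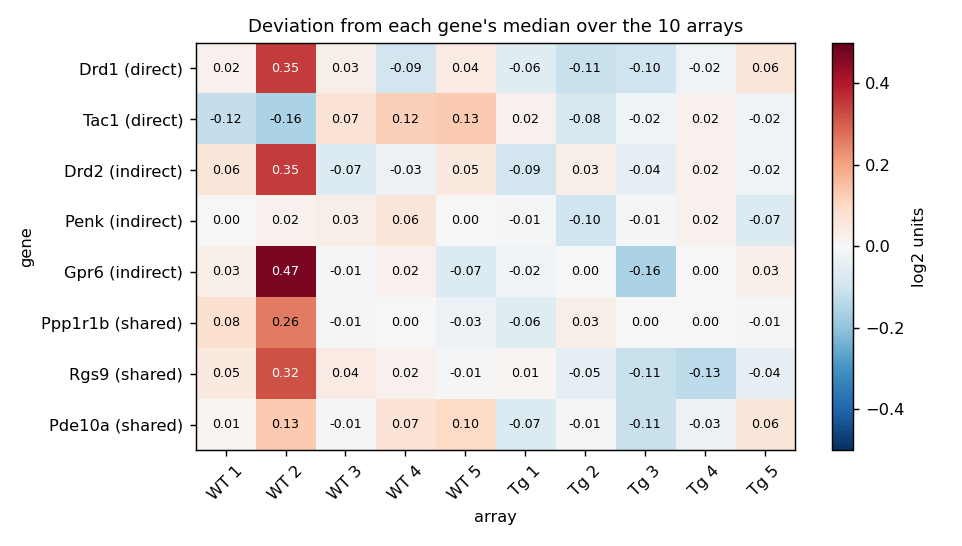
Deviation of each array (columns) from the gene's median over the 10 arrays, in log2 units, for the 8 genes (rows); red is higher, blue lower. The WT replicate 2 column holds 0.47 for Gpr6 and 0.35 for Drd1 and Drd2, with -0.16 for Tac1 and 0.02 for Penk, and outside that column only Gpr6 on Tg replicate 3, at -0.16, lies more than 0.13 from the median.

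**Figure D4:**
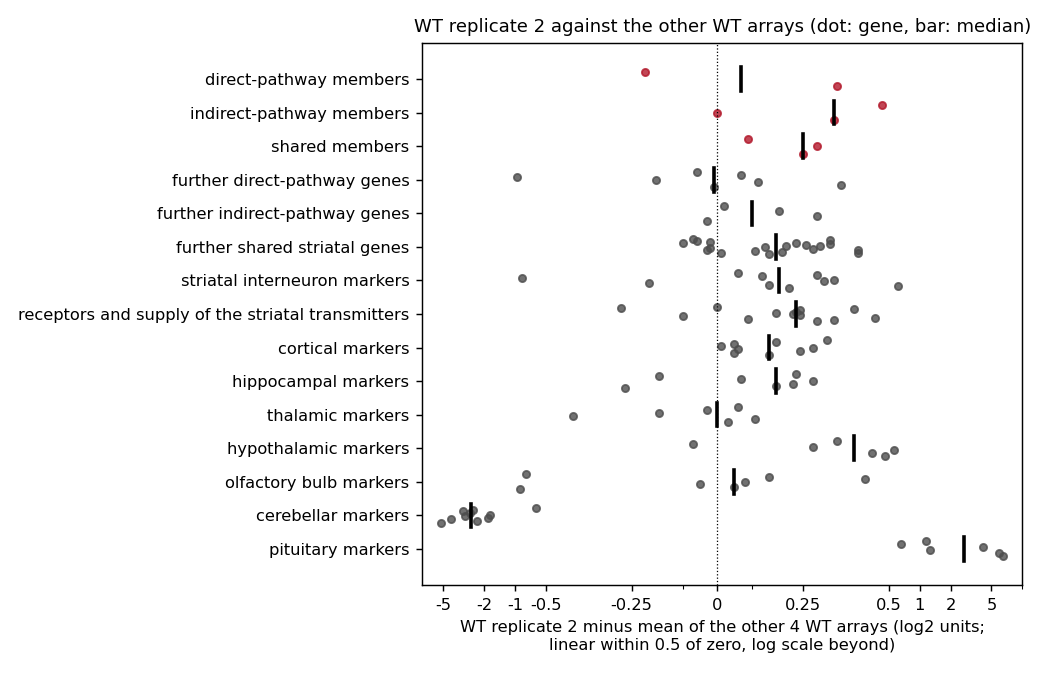
WT replicate 2 minus the mean of the other 4 WT arrays (horizontal axis, log2 units, linear within 0.5 of zero and logarithmic beyond) for the genes of 15 lists; each dot is a gene, red for the genes described here, and the bar is the list's median. Cerebellar markers lie far to the left with a median of -2.64, and pituitary markers far to the right with 2.72. The indirect-pathway, shared, cortical and hypothalamic lists lie mostly between 0 and 0.5. In the direct-pathway lists, 1 of the 2 genes described here and 3 of 7 further genes lie above 0, and Ebf1 is lowest at -0.96.

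The sequences shown precede the starts of Gpr6, Drd1, Drd2 and Rgs9, the 4 genes that stood highest on WT replicate 2. The sequence before Tac1, which stood lowest there, is shown too. Whether these sequences bear on the values of that array was not tested. Promoter sequences from RefSeq, assembly GRCm38.p6, were found for 6 of the 9 genes. Printed are the 250 bases before the annotated start, read 5′ to 3′ on the gene's strand; for Drd1 the first of its annotated starts is given. Capitals mark matches, on either strand, to 5 short motifs: the TATA box TATAAA; the cAMP response element TGACGTCA; the core of that element, TGACG; the GC box, which is GGGCGG; and the box with the letters CCAAT.
Gpr6, chr10:41072291-41072540, minus strand: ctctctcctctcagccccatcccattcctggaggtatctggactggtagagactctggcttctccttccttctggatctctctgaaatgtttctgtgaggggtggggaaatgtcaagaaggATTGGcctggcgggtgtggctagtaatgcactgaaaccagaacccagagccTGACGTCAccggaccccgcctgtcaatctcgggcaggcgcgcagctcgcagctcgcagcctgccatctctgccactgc
Drd1, chr13:54055659-54055908, minus strand: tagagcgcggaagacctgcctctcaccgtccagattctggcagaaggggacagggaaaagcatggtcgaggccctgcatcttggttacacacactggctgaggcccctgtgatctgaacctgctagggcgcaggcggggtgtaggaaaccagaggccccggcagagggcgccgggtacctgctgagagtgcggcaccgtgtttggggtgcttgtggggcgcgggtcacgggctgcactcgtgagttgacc
Drd2, chr9:49340153-49340402, plus strand: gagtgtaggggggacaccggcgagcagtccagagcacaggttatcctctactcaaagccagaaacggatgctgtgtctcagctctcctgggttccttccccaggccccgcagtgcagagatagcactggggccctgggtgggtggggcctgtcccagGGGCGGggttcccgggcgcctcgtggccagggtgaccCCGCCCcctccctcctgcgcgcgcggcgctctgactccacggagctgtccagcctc
Rgs9, chr11:109298182-109298431, minus strand: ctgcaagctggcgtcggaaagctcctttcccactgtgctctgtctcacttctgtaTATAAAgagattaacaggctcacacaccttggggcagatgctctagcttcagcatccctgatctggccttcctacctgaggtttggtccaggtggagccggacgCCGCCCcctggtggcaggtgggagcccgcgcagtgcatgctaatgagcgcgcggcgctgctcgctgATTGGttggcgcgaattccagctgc
Tac1, chr6:7554811-7555060, plus strand: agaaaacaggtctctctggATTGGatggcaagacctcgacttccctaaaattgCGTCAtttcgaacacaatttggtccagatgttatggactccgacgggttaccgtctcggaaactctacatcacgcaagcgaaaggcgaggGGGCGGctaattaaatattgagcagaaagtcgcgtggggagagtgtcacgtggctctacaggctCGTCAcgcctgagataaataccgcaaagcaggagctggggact

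The stretch before Gpr6 held 1 full TGACGTCA, which begins 78 bases before the start and contains the core on both strands; 1.55% of 32851 promoter windows of this length held that motif. Tac1 held 2 separate matches to the core, the nearer beginning 43 bases before the start, and 17.8% of windows held at least one. Drd2 held 2 GC boxes, and Rgs9 and Tac1 held 1 each, against 32.7% of windows with any. A TATAAA was present in Rgs9 alone of those printed, 195 bases before the start, against 12.4% of windows. Gpr6, Rgs9 and Tac1 held 1 CCAAT box each, against 33.8% of windows with any. Drd1 held none of the 5 motifs in this window, while the window of its other annotated start, not printed, held 1 GC box, 133 bases before that start. No motif was shared by Gpr6, Drd1, Drd2 and Rgs9. These matches describe the letters of these windows.

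Across the 10 arrays most pairs of the 8 genes were positively correlated, and the size of the correlations depended on WT replicate 2. The median Pearson r of the 28 pairs was 0.56 (range -0.73 to 0.93) and the median Spearman rho 0.32. Without WT replicate 2 the median r was 0.14 (range -0.68 to 0.64) and the median rho 0.22. The number of pairs with r above 0 was 22 of 28 with that array and 20 without it. After Benjamini-Hochberg adjustment over the 28 pairs, 0 pairs passed by r or by rho in the permutation tests; at an unadjusted p under 0.05 there were 13 pairs by r with 10 arrays and 1 with 9.

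Pairs were then read by pathway, with no test of the difference between kinds of pair. Drd1 and Tac1, both of the direct pathway, had r = -0.445 and rho = -0.115 over 10 arrays (permutation p = 0.207 and 0.757). Without WT replicate 2 their r was 0.122 (exact p = 0.744). Drd2 and Gpr6 of the indirect pathway had r = 0.879 (permutation p = 0.0368, adjusted 0.087) and rho = 0.527, falling to r = 0.147 without that array. The median r was 0.15 for the 3 indirect-pathway pairs, 0.63 for the 3 shared pairs and 0.63 for the 21 pairs between classes, and without WT replicate 2 it was -0.06, 0.14 and 0.26.

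Drd2 and Ppp1r1b formed the pair with the highest r, 0.929 (permutation p = 0.00598, adjusted 0.0837; rho = 0.648, p = 0.0483). Its r was 0.555 without WT replicate 2 (exact p = 0.116), with rho = 0.517, and 0.354 without the 2 arrays farthest from the Drd2 median. Leaving out a gene's most extreme arrays narrows its range, which by itself can lower r. That value therefore cannot show on which arrays the relation rested. Tac1 and Ppp1r1b ran opposite to each other, with r = -0.733 (permutation p = 0.00235, adjusted 0.0658) and rho = -0.685 (p = 0.0355). That pair kept r = -0.678 without WT replicate 2 (exact p = 0.0415, adjusted 0.819) and -0.620 without the 2 arrays farthest from the Tac1 median. Tac1 and Penk, the peptide precursors of the 2 pathways, had r = 0.423 over 10 arrays and 0.641 without WT replicate 2 (exact p = 0.0585, adjusted 0.819; rho = 0.717). Neither pair passed the adjusted threshold.

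**Figure D5:**
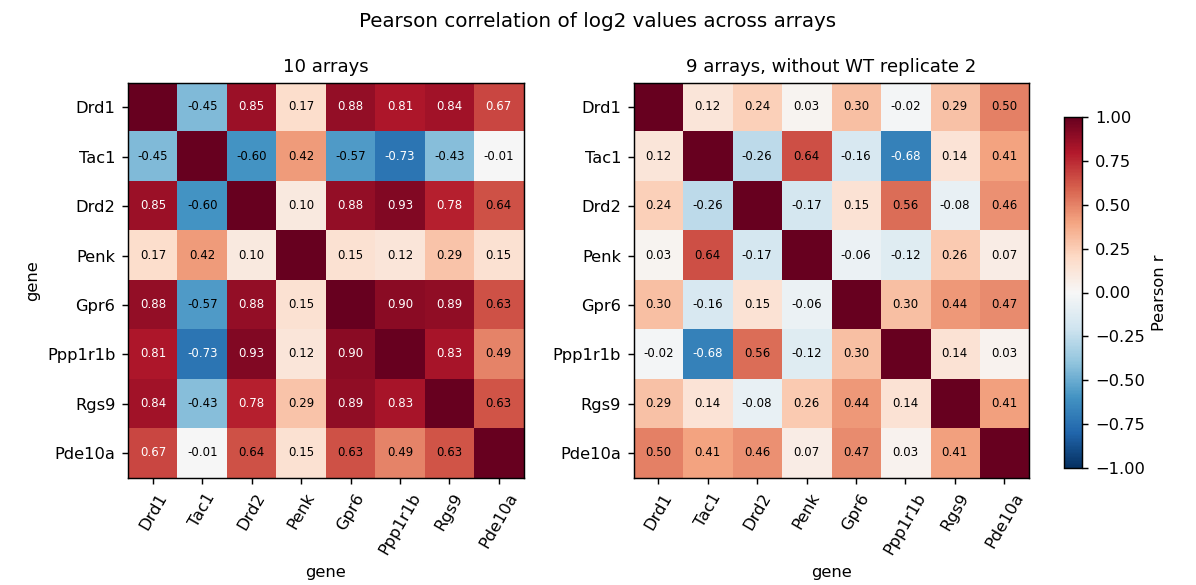
Pearson r of the log2 values of each pair of the 8 genes over 10 arrays (left) and over 9 arrays without WT replicate 2 (right); colours run from -1 in blue to 1 in red. The block of high r among Drd1, Drd2, Gpr6, Ppp1r1b and Rgs9 on the left, such as 0.93 for Drd2 and Ppp1r1b, is not present on the right, where that pair has 0.56; Tac1 against Ppp1r1b is negative in both, at -0.73 and -0.68.

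Likeness of single genes to the group was described by the r of each gene with the mean of the other 7. Over 10 arrays it was 0.89 for Drd1 and Gpr6, 0.88 for Rgs9, 0.85 for Drd2, 0.82 for Ppp1r1b and 0.71 for Pde10a, with 0.26 for Penk and -0.49 for Tac1. Without WT replicate 2 Pde10a had the highest, at 0.75, followed by Rgs9 at 0.45 and Drd1 at 0.43, and Ppp1r1b had -0.02. As percentiles among genes in the upper 60%, these r ran from 21.4 for Tac1 to 99.8 for Gpr6 over 10 arrays. Over 9 arrays the percentiles ran from 44.7 for Ppp1r1b to 98.2 for Pde10a, with Drd2 at 57.9. Among 11955 other genes in the upper 60%, those most like the mean of the 8 over 10 arrays were Fam189a2 (r = 0.967), B4galt3 (0.961), Gpr83 (0.944), Phf24 (0.939), Xkr4 (0.937) and Tars (0.933). Over 9 arrays without WT replicate 2 they were Epc1 (r = 0.964), Map7 (0.944), Usp40 (0.943), Zkscan3 (0.940), Atf7 (0.939) and Rbpj (0.938). The top 6 genes differed between the fits. The arrays behind each r are few, and 2.68% of these genes reached an r of 0.8 over 10 arrays. The likeness was not particular to striatal genes. Over 10 arrays the median r with the mean of the 8 was 0.82 for hypothalamic markers and 0.60 for further shared striatal genes. For cerebellar markers it was -0.87. Over 9 arrays these medians were 0.11, 0.09 and 0.59.

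Other genes of the striatal projection neurons had mostly lower means in Tg. Their lists were also drawn up with earlier results of these arrays known, so this is not independent evidence of a change. Of 31 measured genes in 3 further lists, 25 had a lower mean in Tg with 10 arrays and 23 without WT replicate 2. Of these, 0 passed the limma test, and their median difference was -0.046 and -0.031. Among genes in the upper 60% by mean, 62.3% had a lower mean with 10 arrays and 62.6% without WT replicate 2. Their medians were -0.014 and -0.019, and the shares over all genes were 52.8% and 46.7%. At an unadjusted limma p under 0.05 there was 1 of the 31 in each fit, against shares of 2.21% and 11.0% of probe sets. It was the retinoid receptor gene Rxrg with all arrays and Ebf1 without WT replicate 2. In the list of 7 further direct-pathway genes, 6 had lower means. Isl1, a LIM homeobox factor of these cells, differed by -0.14 (-0.30 to 0.01), the mitochondrial serine transporter gene Sfxn1 by -0.02 and Eya1 by -0.02; with 9 arrays these were -0.12, -0.03 and -0.05. Ebf1, a factor of direct-pathway cell development, differed by 0.01 with 10 arrays and by -0.18 (-0.30 to -0.07, limma adjusted p = 0.4067) without WT replicate 2. On that array it read 8.73 against 9.57 to 9.75 on the other WT arrays. Cerebellar markers had the same directions. Their median was -2.64 on that array relative to the other WT arrays, and their median Tg-minus-WT difference over 9 arrays was -0.211. The part of cerebellar RNA in the Ebf1 values was not tested.

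In the list of 4 further indirect-pathway genes, 2 had lower means in either fit, and the median difference was -0.006, and 0.015 with 9 arrays. Gpr52, an orphan receptor found with Drd2, differed by -0.11 (-0.27 to 0.06), the kainate receptor gene Grik3 by 0.01 and the transcription factor gene Sp9 by 0.04; with 9 arrays these were -0.11, 0.04 and 0.10. The list of further shared genes had 20 of 22 measured, of which 17 had lower means with 10 arrays and 15 without WT replicate 2. Scn4b, a sodium channel beta subunit, differed by -0.17 (-0.37 to 0.04) and by -0.11 without WT replicate 2. Gnal, the G protein subunit that couples the dopamine and adenosine receptors to adenylyl cyclase, differed by -0.05 (-0.15 to 0.05), Arpp21 by -0.03 and the homeobox gene Meis2 by 0.11 (-0.06 to 0.28); with 9 arrays these were -0.04, -0.05 and 0.11. Foxp2, a forkhead factor expressed in striatal projection neurons, lies in the chromosome 6 stretch and read 8.60 to 8.72 in Tg and 9.23 to 9.38 in WT. That difference of -0.64 (limma adjusted p = 4.94e-05; -0.65 with 9 arrays) stood beside differences of at most -0.15 in size for the 8 genes.

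The molecules around these genes gave 0 calls in the limma fit as well, and 0 at an unadjusted p under 0.05 in either of the following lists in either fit. The list of 13 measured receptors and supply genes of dopamine, tachykinins and opioids had 5 lower means and a median of 0.020, and 3 and 0.060 with 9 arrays. Th, the rate-limiting enzyme of dopamine synthesis, differed by 0.21 (-0.07 to 0.48), the dopamine transporter gene Slc6a3 by -0.01, Maoa by -0.09 and Maob by 0.03; with 9 arrays these were 0.24, 0.04, -0.15 and 0.03, so Slc6a3 changed sign. Of 11 measured partners of Rgs9 and of the phosphoprotein, 10 had lower means in either fit, with a median of -0.014, and of -0.015 with 9 arrays. These medians were close to those of all genes in the upper 60% by mean, -0.014 and -0.019. Of those genes 62.3% had lower means with 10 arrays and 62.6% with 9. Among the partners, the calcineurin subunit gene Ppp3ca differed by -0.04 and the protein kinase A subunit gene Prkacb by less than 0.01. Ppp1cc differed by 0.06 and Rgs11 by -0.11. The last 2 rested on WT replicate 2, which lay -0.32 from the mean of the other WT arrays in Ppp1cc and 0.48 from it in Rgs11; with 9 arrays Ppp1cc differed by less than 0.01 and Rgs11 by -0.02.

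Markers of striatal interneurons, of other brain regions and of glia were set beside these values. Whole-brain RNA does not show from which region their signal came. Striatal interneuron markers had 7 of 10 lower means with all arrays and 3 of 10 without WT replicate 2, with medians of -0.018 and 0.011. Sst differed by -0.06, Npy by 0.07 and the fast-spiking interneuron gene Pvalb by 0.11. With 9 arrays Sst and Pvalb changed sign, to 0.01 and -0.06, and Npy was 0.13. Pvalb read 10.35 on WT replicate 2, against 11.16 to 11.24 on the other WT arrays. Olfactory bulb markers, whose region also holds many GABAergic cells, had 0 of 7 lower means and a median difference of 0.268, and 1 of 7 and 0.338 with 9 arrays; their list mean ranged from 7.94 to 8.23 on the other 4 WT arrays and from 8.07 to 8.68 in Tg. Cerebellar markers had a median of 0.317 with all arrays, where 0 of 10 means were lower in Tg. Without WT replicate 2 the median was -0.211 and 10 of 10 means were lower, against 46.7% of all genes. At an unadjusted limma p under 0.05 there were then 9 of 10, against 11.0% of probe sets, and 0 passed after adjustment. With all arrays that count was 0 of 10, against 2.21%. The part of cerebellar RNA in the striatal values was not tested. Oligodendrocyte, astrocyte and microglia lists held 0 genes past the test in 15 measured, with medians between -0.021 and 0.020, and between -0.023 and 0.021 with 9 arrays.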

How the data were processed

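Total RNA of 10 whole mouse brains was isolated with TRIzol and RNeasy clean-up and hybridised to Affymetrix gene arrays, 1 for each mouse, as the labels' protocols state. Affymetrix Expression Console 1.1.2 was used, per the submitters' processing notes; its settings and the genome build were not given in those notes. The authors deposited values per probe set that were taken as log2 expression values from their range of 3.28 to 14.7; they were used without further normalization. Of 35556 rows, 6612 with identifiers below the first transcript cluster (18.6%) were left out as controls. Symbols came from the platform annotation, updated through Entrez identifiers (21698 of 21789 matched GRCm38.p6). No gene was named from the 1621 probe sets with several genes.

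Tg and WT were compared with limma 3.58.1 (R 4.3.3) over 28944 probe sets, with Benjamini-Hochberg adjustment and a threshold of 0.05, a step tested on simulated data. Single genes were also tested by two-sided exact permutation over arrays. Correlations used 100000 permutations over 10 arrays and all permutations over 9. Replicates are biological by label; with arrays, their number sets the precision. Upper 60% means a mean over all arrays in that share of probe sets or genes. Alternatives were each array left out, quantile and median normalization, centring on cortical markers, a filter on dim probe sets, trended robust variances, a block for the replicate number, array weights and the mean of a gene's probe sets.

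The genes, the lists and the tests were chosen with earlier results of these data known. The text names the 9 genes, Glo1 and Foxp2, the 3 brightest and the most different gene of each further list, the called gene nearest to Tac1 and the 6 genes most like the group mean. Nxph1, Asns, Sdhaf3, Prl and Gh were chosen after their values were seen.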

Additional observations from a re-analysis of the deposited data

Results flagged for a closer look

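A test for a single outlying array (Dixon's, with a critical value of 0.71 for 5 arrays) was applied to 26 sets of 5 arrays. Chance marks about 1 in 20 of independent sets. The test marked 8 here. WT replicate 2 had been singled out beforehand, and the class means share genes and arrays with the single-gene sets. The count is therefore not to be read against that rate. Gpr6 on WT replicate 2 read 9.95, far above the next WT array at 9.51, and Gpr6 on Tg replicate 3 read 9.32, below the next Tg array at 9.46. Rgs9 on WT replicate 2 read 10.41, against 10.15 on the next. The mean of the indirect-pathway genes there was 11.14, against 10.89 at most on the other WT arrays, and the mean of the shared genes 10.84, against 10.65. Drd1, Drd2 and Ppp1r1b were also highest on that array but did not reach the critical value. The cerebellar marker mean of WT replicate 2 was the lowest of its group at 7.93, with 10.61 next. The pituitary marker mean was the highest of its group on WT replicate 2, at 9.92, and on Tg replicate 2, at 9.54. Of the 6 genes that were highest on WT replicate 2, Drd2 (10.52) and Ppp1r1b (10.62) were the highest of the Tg arrays on Tg replicate 2, Pde10a (11.12) was second, Rgs9 (10.04) and Gpr6 (9.47) lay in the middle and Drd1 (9.31) was the lowest. The part of pituitary RNA in these values was not tested.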

How the results depend on the processing

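Over 20 alternative settings, 0 of 160 values of the 8 genes passed the limma threshold, and 158 kept the direction of the fit over 10 arrays. The exceptions were Tac1 without WT replicate 4 (0.003) and without WT replicate 5 (0.004); its values with single arrays left out began at -0.067, without WT replicate 2. With single arrays left out, Drd1 ranged from -0.156 to -0.045, Drd2 from -0.128 to -0.024, Gpr6 from -0.156 to -0.021, Ppp1r1b from -0.091 to -0.017 and Rgs9 from -0.176 to -0.095; the value nearest to 0 came without WT replicate 2 in each of these. The median of the 8 ranged from -0.116 to -0.051 with single arrays left out. Array weights, which gave WT replicate 2 the lowest weight (0.194), brought it to -0.046, quantile normalization to -0.075, and in the other planned settings it lay between -0.093 and -0.090. With array weights the pathway medians were -0.049 (direct), -0.046 (indirect) and -0.078 (shared). The count of probe sets past the threshold ran from 9 to 11 over all 20 settings. The median pairwise r fell from 0.563 to 0.145 without WT replicate 2. It was 0.139 without the 2 arrays farthest from the median of the first gene, a choice that by itself can lower r. For deviations from the group means it was 0.409.

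The replicate number as a block gave 11 probe sets past the threshold and a median of -0.092 for the 8 genes, and changed no call among them. Same-numbered arrays had correlations of deviations from -0.472 to 0.453, and 4 of 10 arrays correlated best with their own number. These values were not tested, so they do not settle whether the numbers pair the arrays. With the block kept and WT replicate 2 left out, a setting chosen after the data were seen, the median of the 8 genes was -0.039. The number of arrays limits these values.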
